A study of Mus musculus with 24 samples.

Results

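The genes of the opioid peptides and their receptors, with the main cannabinoid receptor of neurons, were followed in the spinal nerve roots of mice from birth to 5 weeks. They were Penk and Pdyn (peptide precursors), Oprm1, Oprd1, Oprk1 and Oprl1 (receptors) and Cnr1. Members were found by gene name among the gene probes of the array, which gave 18 probes for 7 genes out of 56605 gene probes and 37074 gene names. Each gene was read through its probe with the highest mean over the 24 arrays, and its other probes served as a check. Efferent nerve fibres (EN, ventral roots) and afferent nerve fibres (AN, dorsal roots) of lumbar segments L4 to L6 had been dissected from C57BL/6 mice of both sexes at postnatal day 0 (P0), 1 week (1W), 3 weeks (3W) and 5 weeks (5W). This gave 8 groups of 3 one-colour Agilent arrays each, from 3 independent experiments with several animals per age; how animals fall onto arrays is not given in the sources used here. No allele or treatment is named for any group, so the groups differed in age and in the root sampled. A root holds axons, Schwann cells, connective tissue and vessels, so the RNA came from a mixture, and in such bulk RNA fewer cells of a type and less RNA per cell cannot be told apart. The labels name the cord segments as the tissue and the fibre type as its subtype.

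Opioid peptides are cut from large precursor proteins: Penk gives the enkephalins and Pdyn the dynorphins. Their receptors couple to inhibitory G proteins, which lower transmitter release by closing calcium channels and opening potassium channels. In the dorsal horn this system restrains the input of pain fibres, and dorsal root ganglion neurons carry opioid receptors and the cannabinoid receptor Cnr1 along their axons, where they are targets of analgesic drugs. Enkephalins and dynorphins in the cord are made mostly by interneurons of the dorsal horn.

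The labelled tissue was checked against marker lists before the members were read. The Schwann cell list (7 genes, among them Prx) had a mean log2 level of 14.90 to 17.05 over all 24 arrays. Sensory neuron markers, 11 genes that include the ganglion genes Prdm12 and Scn10a, were measured in the AN and the EN arrays of P0, where 0 of 11 differed in limma's test at an adjusted p below 0.05 with a fold above 2 (1 at an unadjusted p alone). Scn10a, a sodium channel of pain fibres, stood at 12.504, 13.725 and 11.98 in P0 AN and at 12.09, 12.36 and 12.53 in P0 EN. The EN arrays of P0 therefore carried markers of sensory neurons at levels that overlapped those of AN. Spinal interneuron markers overlapped at P0 as well. The level summed over their 6 tested genes, as log2, ran from 11.64 to 12.3 in AN and from 11.61 to 11.91 in EN. How cleanly the roots of P0 were separated from each other and from cord or ganglion tissue was not tested. By 1W, 8 of the 11 sensory neuron markers were higher in AN. Within AN, replicate 3 of 3W stood apart: its sensory neuron list averaged 12.92, against 9.46 and 9.16 on the other 3W AN arrays. Replicate 2 of 5W AN stood apart on spinal interneuron markers, with Gad2, an enzyme of GABA synthesis, at 9.28 (6.83 and 6.59 on the other arrays of its group) and the glycine transporter gene Slc6a5 at 8.32 (5.30 and 5.53). These values are given again beside the members that moved with them, and the members and the gene lists were also compared between roots without those arrays.

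**Figure D1:**
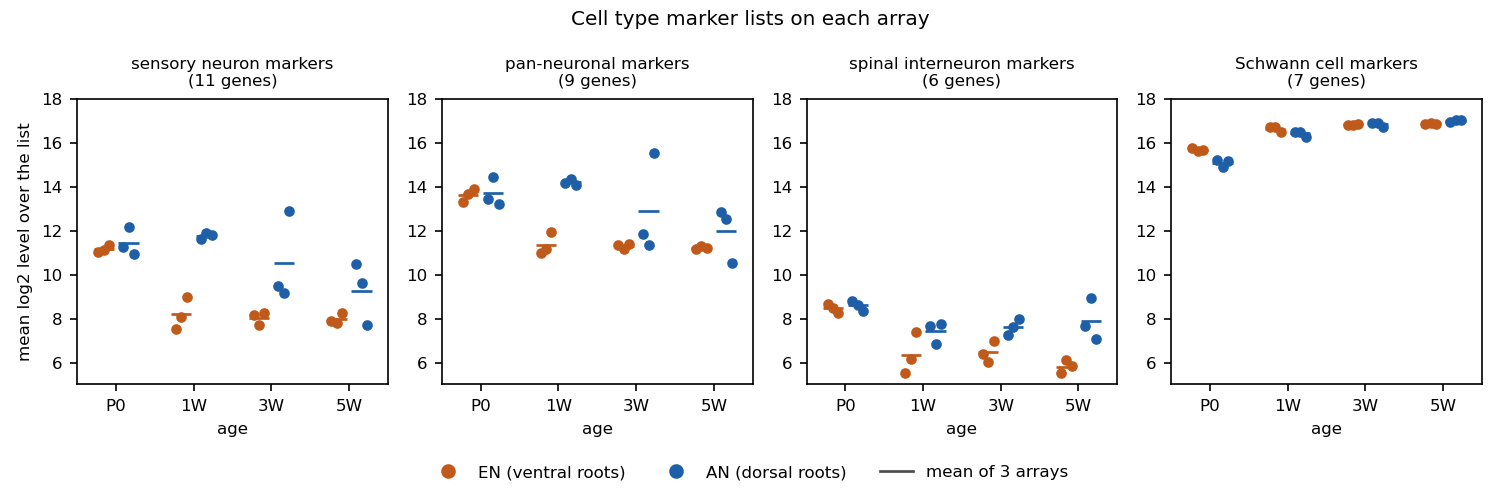
Mean log2 level (authors' table) of 4 cell type marker lists on each of the 24 arrays, by age, with EN in orange and AN in blue; points are arrays and short lines are group means. At P0 the sensory neuron list overlaps between EN and AN, at 1W the AN arrays (11.62 to 11.90) lie above the EN arrays (7.52 to 8.98), and 3W AN replicate 3 lies at 12.92.

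The probes are shown because the reading of 2 receptors turned on them. Each is a 60-base sequence; the printed stretch is the whole probe or 30 of its bases, as stated, in the orientation of the array design. The probe of Oprm1 that the rule selected carries a simple repeat, shown in capitals (probe bases 20 to 49, chr10:3308332-3308391 of mm9 for the whole probe, minus strand). Another Oprm1 probe, printed whole, was well above background on 0 arrays (chr10:3516154-3516213, minus strand). The 3 probes of Oprl1 lie on the plus strand of chromosome 2 at 181455616-181455675 (bases 1 to 30 shown), 181450549-181450608 and 181453719-181453778 (both printed whole). The selected probes of Penk (chr4:4060735-4060794, minus strand), Pdyn (chr2:129512323-129512382, minus strand), Oprk1 (chr1:5593115-5593174, plus strand) and Cnr1 (chr4:34035526-34035585, plus strand) are shown by bases 1 to 30. Coordinates are those of the array files, and the exon or untranslated part that each probe reads is not given in the sources used here.
Oprm1 A_55_P2025443: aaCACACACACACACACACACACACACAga
Oprm1 A_51_P100309: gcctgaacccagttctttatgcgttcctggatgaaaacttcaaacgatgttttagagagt
Oprl1 A_55_P2066593: tagccctgaacctgcctctggggtaatgaa
Oprl1 A_52_P297290: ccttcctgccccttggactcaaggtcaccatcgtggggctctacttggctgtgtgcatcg
Oprl1 A_55_P2827201: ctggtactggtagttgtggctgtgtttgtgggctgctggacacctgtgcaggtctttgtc
Penk A_51_P102987: ggtctcttatggctatgttgttatcaatag
Pdyn A_52_P586928: acctacttgggacatgtgatccttaatagg
Oprk1 A_55_P2592718: caagccgatttcaatcccttgagaaacaaa
Cnr1 A_55_P1953753: ctggtagcatcattgagactgctgtgatgt

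In limma's fit across 36409 probes 6 of the genes could be tested; a probe entered where every array of some group was well above background. Oprd1 could not, since its only probe was well above background on 1 array of 24. A difference was called where the Benjamini-Hochberg adjusted p was below 0.05 and the fold was above 2. At P0 0 of the 6 differed between AN and EN (0.327% of all probes were called), and 0 did at an unadjusted p below 0.05 with the fold above 2 (1.12%). At 1W only Cnr1 was higher in AN by this rule (2.41% of all probes were called higher); at 3W Pdyn, Oprl1, Oprk1 and Cnr1 were higher (2.23%), and at 5W Penk joined these 4 (2.49%). No member was lower in AN at any age by this rule. The share of all probes called lower in AN is not given here, so this absence cannot be set against it. The median difference over the 6 genes, AN minus EN on the log2 scale, went from 0.08 at P0 to 1.72, 2.11 and 2.68 at the later ages, while that over all tested probes stayed between -0.06 and 0.01. Arrays of AN and EN with the same age and number shared a slide and deviated together, and with each such pair as a block 4 members were called at 1W (Oprk1, Oprl1, Pdyn and Cnr1; 3.19% of all probes were called higher in that fit), 5 at 3W (3.3%) and 5 at 5W (3.48%).

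**Figure D2:**
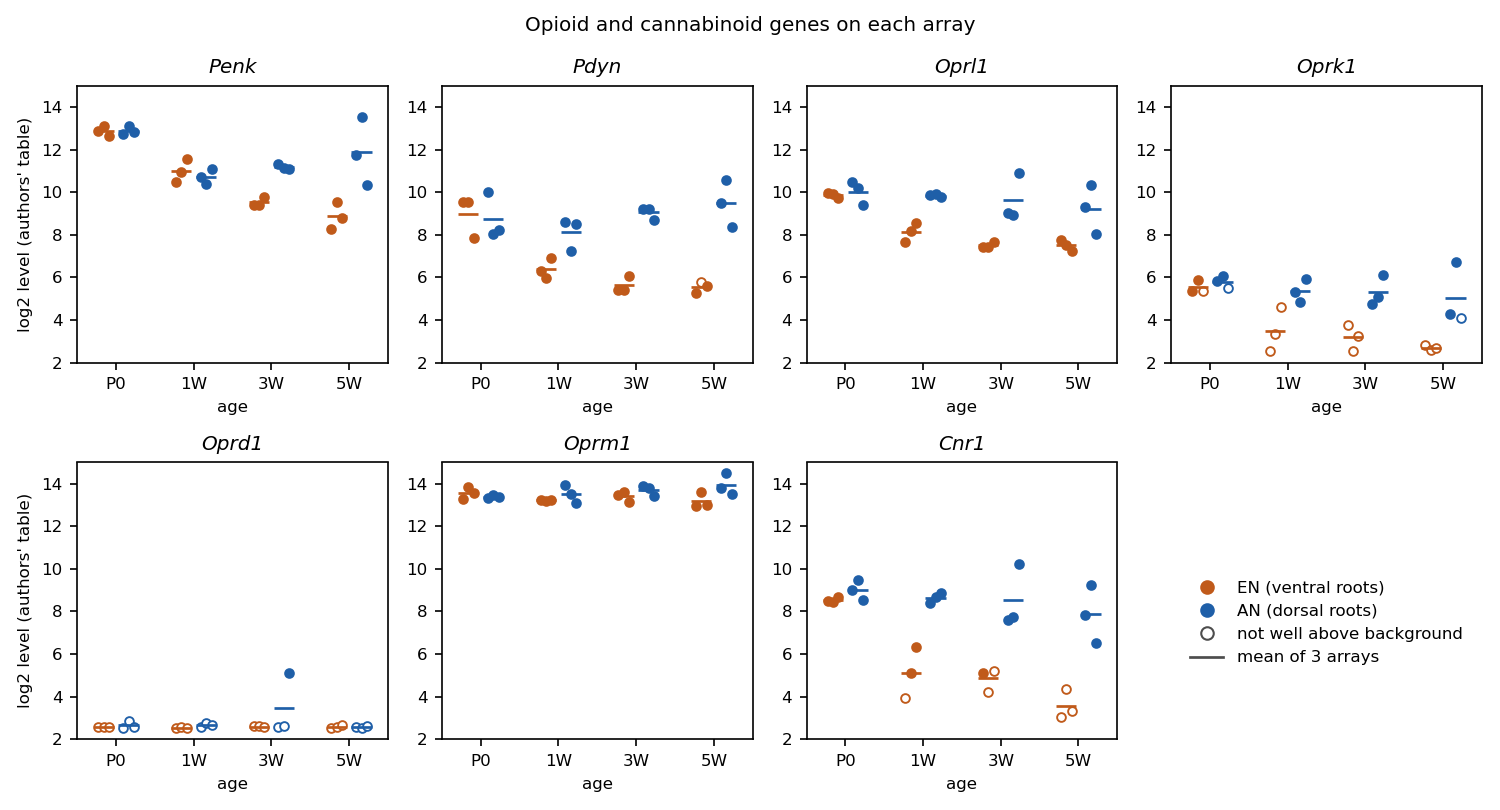
Log2 level (authors' quantile-normalized table) of the 7 genes on each array by age, through the selected probe of each gene; filled points were well above background, open points were not, and short lines are means of 3 arrays. Levels overlap between EN and AN at P0 and part with age for Pdyn, Oprl1, Oprk1 and Cnr1, and at 3W and 5W for Penk, while Oprm1 stays between 12.98 and 14.50.

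Penk, the precursor of the enkephalins, was alike in both roots at birth and ended higher in the dorsal roots. At P0 its log2 level was 12.77, 13.12 and 12.82 on the AN arrays and 12.87, 13.11 and 12.67 on the EN arrays. One week later it was 10.71, 10.40 and 11.09 in AN and 10.49, 10.96 and 11.55 in EN. The roots overlapped at both of these ages. At 3W the AN arrays read 11.34, 11.15 and 11.08 and the EN arrays 9.40, 9.42 and 9.80. At 5W they read 11.75, 13.56 and 10.37 in AN and 8.29, 9.53 and 8.79 in EN, with no overlap at either age. The difference at 5W was 3.02 ± 0.51 on the log2 scale (SE, 95% interval 1.95 to 4.09, limma adjusted p = 0.0012). The difference at 3W, 1.65 (0.58 to 2.72), was not called (adjusted p = 0.0641) but was with the pairs as a block (adjusted p = 0.0128). Each pair of the same number went the same way at these ages, by 1.28 to 1.94 at 3W and by 1.57 to 4.03 at 5W. All 3W arrays lay on the same slide, so pairs of that age were matched by number alone. The highest Penk value of 5W was that of AN replicate 2, the array with high interneuron markers, and without it the 5W difference was 2.19 (adjusted p = 0.00258).

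After birth Penk fell in both roots. In EN its log2 differences from P0 at the later ages were -1.88, -3.34 and -4.01, all called, with adjusted p of 0.0103, 2.57e-05 and 2.69e-06. The call at 1W was lost without 1W EN replicate 1 (-1.63, adjusted p = 0.0553). In AN it fell by 2.17 at 1W and by 1.71 at 3W (adjusted p = 0.00496 and 0.00901), and at 5W the value of -1.01 was not called (adjusted p = 0.107). Without 5W AN replicate 2 that last difference was -1.85 and was called (adjusted p = 0.000592). The AN fall at 3W rests on slides that hold no P0 array: with the slide as a block it was -0.20 (adjusted p = 0.811), while the EN difference at 3W was -1.82 (adjusted p = 0.0153) in the same fit. A second Penk probe (chr4:4065808-4065867 of mm9) gave an AN minus EN difference of 1.53 at 5W that was not called (adjusted p = 0.1), and 0.04 at 3W. In EN its difference from P0 at 5W was -2.47 and was called (adjusted p = 0.000725), but it did not show the fall at 1W, with means of 7.66 at P0 and 7.66 at 1W. With the probes averaged the EN difference at 1W was -0.94 and was not called (limma adjusted p = 0.118).

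Pdyn, the precursor of the dynorphins, fell after birth in the ventral roots, while in the dorsal roots no difference from P0 was called without a slide block. Its P0 values were 9.996, 8.029 and 8.22 in AN and 9.54, 9.56 and 7.83 in EN, a wide and overlapping spread. At 1W AN read 8.63, 7.26 and 8.53 and EN 6.32, 5.96 and 6.94. At 3W the AN arrays read 9.24, 9.23 and 8.72, above the EN arrays at 5.40, 5.42 and 6.07. The roots no longer overlapped from 1W on. At 5W the AN arrays read 9.52, 10.58 and 8.38 and the EN arrays 5.29, 5.77 and 5.62, of which 5.77 was not well above background. AN exceeded EN by 3.43 ± 0.58 at 3W (SE, 95% interval 2.22 to 4.64, adjusted p = 0.0014) and by 3.93 ± 0.58 at 5W (2.72 to 5.14, adjusted p = 0.000326). The 1W difference of 1.73 was called with the pairs as a block (adjusted p = 0.0404) and not without (0.119). All 9 pairs from 1W to 5W were higher in AN, by 1.29 to 4.81. The highest array was again 5W AN replicate 2, and without it the 5W difference was 3.39 (adjusted p = 0.00281).

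In EN, Pdyn fell by 2.57, 3.35 and 3.42 from P0 to 1W, 3W and 5W (adjusted p = 0.00286, 8.86e-05 and 6.34e-05). In AN the differences from P0 were -0.61, 0.31 and 0.74 and none was called, though with the slide as a block that at 5W was (1.58, adjusted p = 0.0241). Within the slide that holds P0 and 5W arrays of both roots, the 5W value of Pdyn differed from P0 by -2.92 in EN and by 2.46 in AN (1 array of 5W and 2 of P0 in each root, the AN array being 5W AN replicate 2). Pdyn was the member whose difference between roots itself changed by the rule: the AN minus EN difference was 3.66 ± 0.81 larger at 3W than at P0 (SE, adjusted p = 0.0465; 0.286% of all probes called upward) and 4.16 ± 0.81 larger at 5W (adjusted p = 0.0156; 0.615%). At 1W no member passed this test (adjusted p of at least 0.331, against 0.0632% of all probes called), although 3 did at an unadjusted p with the fold (3.8%). With the pairs as a block Cnr1 passed at 3W (3.18, adjusted p = 0.0401), and Penk (3.00, adjusted p = 0.0116) and Cnr1 (3.80, adjusted p = 0.0164) passed at 5W. The shares of all probes above are those of the fit without the block, and those with it are not given here for this test. The 3W call of Pdyn depended on single arrays: leaving out any 1 of 10 of the 12 arrays behind it took its adjusted p above 0.05, up to 0.137, while its size stayed between 3.30 and 4.29. The 2 that did not were P0 AN replicate 1 and P0 EN replicate 3. At 5W this happened without P0 AN replicate 3 or P0 EN replicate 1 (adjusted p = 0.0514 and 0.0509).

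**Figure D3:**
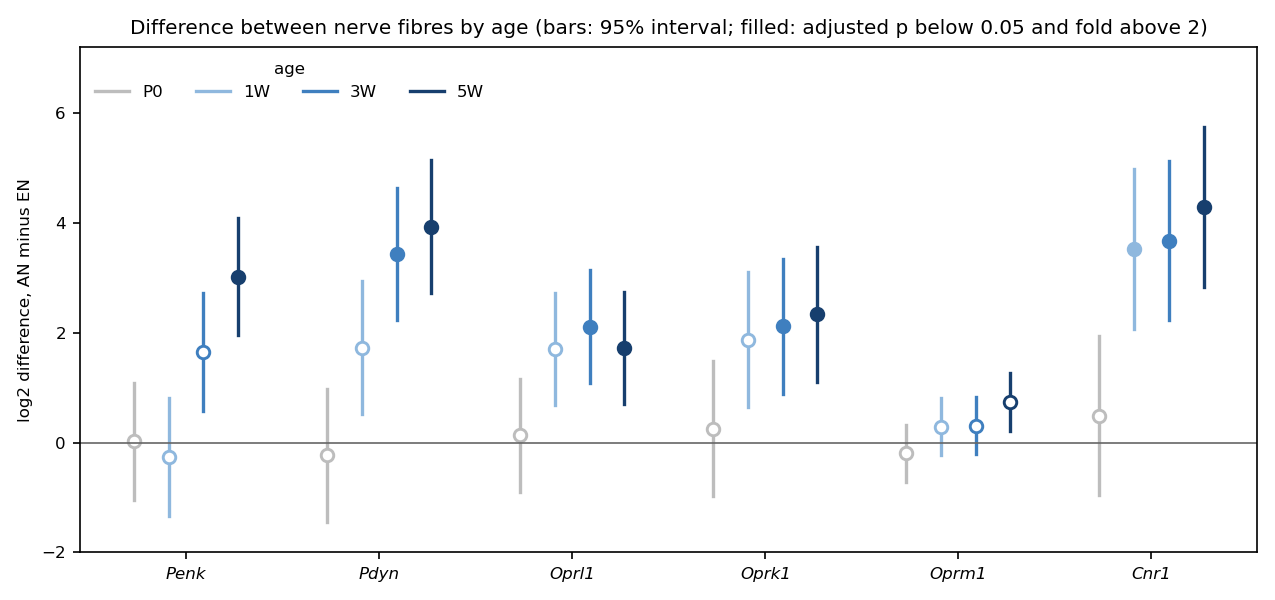
AN minus EN log2 difference of the 6 tested genes at each age, with 95% intervals from the limma fit; filled points have an adjusted p below 0.05 and a fold above 2. At P0 all intervals include 0; at 5W every gene but Oprm1 is filled, from 1.72 (Oprl1) to 4.29 (Cnr1).

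Oprl1, the receptor of nociceptin, followed the same course through its selected probe. AN read 10.46, 10.21 and 9.39 at P0 and EN 9.98, 9.93 and 9.76, which overlapped. From 1W the roots were apart: 9.87, 9.90 and 9.77 in AN against 7.68, 8.17 and 8.57 in EN at 1W. At 3W AN read 9.04, 8.92 and 10.92 and EN 7.45, 7.43 and 7.68. The 5W arrays read 9.32, 10.34 and 8.04 in AN and 7.76, 7.52 and 7.24 in EN. The difference was called at 3W (2.11 ± 0.49, SE, adjusted p = 0.0148) and at 5W (1.72 ± 0.49, adjusted p = 0.0388), and at 1W with the pairs as a block (1.71, adjusted p = 0.028). The arrays that stood apart were the highest of their groups, and without 3W AN replicate 3 the 3W difference was 1.46 (adjusted p = 0.0794; 0.0188 with 5W AN replicate 2 left out of the fit as well). The 3W call was lost as well without 3W EN replicate 1 or 2 (2.08 and 2.06, adjusted p = 0.0561 and 0.0556). Without 5W AN replicate 2 the 5W difference was 1.17 (adjusted p = 0.214), and the 5W call held in none of the fits that left out a 5W array except that without 5W AN replicate 3.

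The other probes of Oprl1, also well above background on all 24 arrays, did not show this. Probe A_52_P297290 gave AN minus EN differences of -0.24, -0.49, -0.58 and -0.50 at the 4 ages, none called, with AN below EN without overlap at 3W (adjusted p = 0.133). Probe A_55_P2827201 gave 0.42, -0.03, 0.09 and 0.21, again with no call. The difference of Oprl1 between roots is thus a result of 1 probe of 3, and with the probes averaged it was 0.54 at 3W and 0.48 at 5W (adjusted p = 0.107 and 0.153). The same held for its fall with age in EN: against P0 at the later ages A_52_P297290 gave 0.31, -0.47 and -0.04 and A_55_P2827201 gave 0.22, 0.11 and 0.32, none called, and the mean of the probes gave -0.40, -0.91 and -0.70 (adjusted p = 0.127, 0.000571 and 0.00452), each under the 2-fold limit and so not called. Which of the 3 follows the receptor's RNA was not tested.

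Oprk1, the dynorphin receptor, was near the limit of the array. Its selected probe was well above background on 10 of 12 AN arrays and on 2 of 12 EN arrays, the latter both of P0. At P0 it read 5.83, 6.05 and 5.49 in AN and 5.34, 5.90 and 5.37 in EN. At 1W AN read 5.30, 4.83 and 5.94, and EN read 2.54, 3.33 and 4.59 with no array well above background. The 3W arrays gave 4.74, 5.06 and 6.13 in AN and 3.77, 2.54 and 3.27 in EN, and those of 5W 4.27, 6.72 and 4.08 in AN and 2.82, 2.58 and 2.67 in EN. From 1W on AN exceeded EN without overlap, by at least 1.39-fold at 1W (adjusted p = 0.0906; 0.0497 with the pairs as a block) and at least 1.35-fold at 3W (adjusted p = 0.0392). Such a bound sets the AN mean against, for each EN array, the lowest signal that counted as well above background or the probe's own where that was higher. The probe entered the fit only through AN of 1W and AN of 3W, where all 3 arrays were well above background. The comparisons of roots at 1W and 3W thus used the groups that let the probe in, and their p-values are not independent of the filter. At 5W the measured difference of 2.33 was called (adjusted p = 0.0203), and the bound gave no fold above 1. Without 5W AN replicate 2, the array at 6.72, the 5W difference was 1.49 and was not called (adjusted p = 0.119), and without 3W AN replicate 3 the 3W difference of 1.71 was not called (adjusted p = 0.172; 0.0424 with both arrays left out of the fit). The 3W call was lost too with normexp background correction (0.54, adjusted p = 0.147) and with no filter on dim probes (adjusted p = 0.0645). The 3W call was lost without any 3W array but AN replicate 1, and the 5W call also without EN replicate 2 or 3 (adjusted p = 0.0596 and 0.0558).

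Against P0, Oprk1 in EN was lower by at least 1.58-fold at 1W and 3W and at least 1.41-fold at 5W (adjusted p = 0.014, 0.00251 and 0.000463). With normexp background correction the log2 differences were smaller, -0.50, -0.60 and -0.70 (adjusted p = 0.0864, 0.0221 and 0.0085). Each was under the 2-fold limit, so none was called. The 1W call was lost without P0 EN replicate 2 (-1.88, adjusted p = 0.0522) or 1W EN replicate 1 (-1.58, adjusted p = 0.0881). Its differences in AN, -0.43, -0.48 and -0.76, were not called. A second Oprk1 probe, A_51_P377528, was well above background on 2 arrays, both of AN, and missed the filter. From P0 to 5W its means were 3.02, 2.84, 2.96 and 2.89 in EN, so it did not show the fall. In AN they were 4.05, 3.17, 3.73 and 3.68, and the roots overlapped at P0, 1W and 5W. Oprd1, the receptor that prefers enkephalins, read 2.51 to 2.86 on 23 arrays with 0 of them well above background. The exception was 3W AN replicate 3 at 5.10, the array with high sensory neuron markers.

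Oprm1, the receptor of morphine, cannot be described by the selected probe alone. That probe was well above background on all 24 arrays and read 12.98 to 14.50. AN minus EN was -0.20, 0.29, 0.31 and 0.74 at the 4 ages and no comparison of it was called; the 95% interval at 5W ran from 0.22 to 1.26. The probe holds 26 bases of alternating C and A. A run of 20 such bases (10 CA units, either strand) occurs in 75 of the 56605 gene probes (0.132%), and 75 of these 75 were well above background on all 24 arrays, as were 46.8% of all gene probes. None of the 75 was called between AN and EN at any age by the adjusted rule. Of all probes 0.327% were called at P0, and 2.41%, 2.23% and 2.49% were called higher at 1W, 3W and 5W. With such shares a 0 among 75 says little about these probes. At 3W against P0, 7 of the 75 were called in EN and 2 in AN (14.4% and 12.8% of all probes were called lower). What the selected probe hybridises to was not tested.

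The other 6 Oprm1 probes gave little signal. Probe A_52_P699664 (chr10:3492541-3492600 of mm9) was well above background on 7 AN arrays and 1 EN array. It read 5.53, 5.48 and 6.15 in AN at 1W and 2.61, 2.60 and 2.64 in EN, where it was not above background. This is a difference of at least 1.79-fold (adjusted p = 0.0344), and the groups did not overlap. The probe entered the fit through this AN group alone, so the filter and the test used the same arrays. The probe's p-value at 1W is therefore not independent of the filter. At 3W it read 2.61, 3.07 and 7.33 in AN, so that 3W AN replicate 3 alone was above background, and at 5W it read 2.95, 5.01 and 3.78. In EN it was called lower at each later age than at birth (adjusted p = 0.035, 0.0177 and 0.019), by at least 1.09-fold at 1W and 3W, and at 5W the bound gave no fold above 1; at P0 it was above background on 1 of 3 EN arrays. Probe A_55_P2087458 was above background on 15 arrays and gave AN minus EN differences of 0.24, -0.64, -0.27 and -0.32, none called; in AN it was at least 1.69-fold lower at 3W than at P0 (adjusted p = 0.0125). Probe A_55_P2087448 was above background on 1 array, and the remaining 3 probes on none, with levels up to 5.48.

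**Figure D4:**
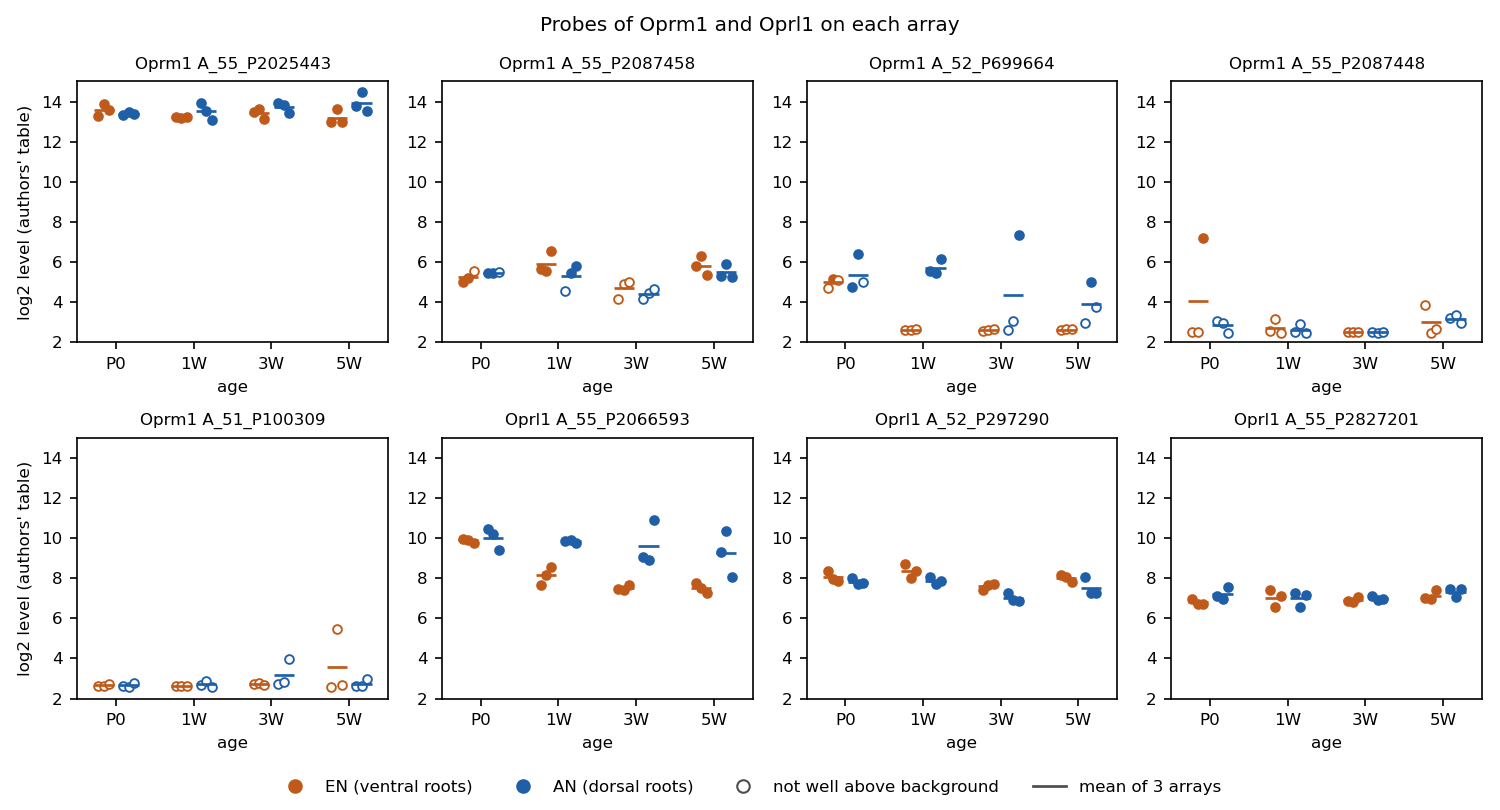
Log2 level of 5 Oprm1 probes and the 3 Oprl1 probes on each array, with EN in orange, AN in blue, open points not well above background, and short lines for means of 3 arrays. The selected Oprm1 probe A_55_P2025443 is flat near 13.5, A_52_P699664 parts the roots at 1W, and of the Oprl1 probes A_55_P2066593 alone has AN above EN without overlap.

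Cnr1, the cannabinoid receptor of neurons, was higher in AN than in EN at each age from 1W to 5W. At P0 it read 9.02, 9.49 and 8.56 in AN and 8.48, 8.43 and 8.68 in EN, which overlapped. At 1W AN read 8.40, 8.69 and 8.85 and EN 3.94, 5.09 and 6.34. At 3W the values were 7.61, 7.76 and 10.21 against 5.13, 4.22 and 5.20, and at 5W they were 7.82, 9.26 and 6.51 against 3.04, 4.37 and 3.31. All AN arrays were well above background, against 6 of 12 EN arrays: all 3 of P0, then 2 of 1W, 1 of 3W and 0 of 5W. The sizes at 1W and 3W therefore include EN values that were not well above background. The difference was 3.53 ± 0.69 at 1W (SE, adjusted p = 0.00707) and 3.68 ± 0.69 at 3W (adjusted p = 0.00368). At 5W AN exceeded EN at least 7.06-fold (adjusted p = 0.000797). All 9 pairs from 1W to 5W were higher in AN, by 2.48 to 5.01. The call at 1W was lost without 1W EN replicate 1 (2.94, adjusted p = 0.0563), and the 3W difference was 2.83 without 3W AN replicate 3 (adjusted p = 0.0219).

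Over the same ages Cnr1 fell in EN and was not called in AN. The EN differences from P0 were -3.41 at 1W and -3.68 at 3W (adjusted p = 0.00139 and 0.000214), and at 5W the level was at least 11.2-fold lower (adjusted p = 8e-06). With the slide as a block the 3W difference was -2.32 and was no longer called (adjusted p = 0.0626). In AN the differences were -0.38, -0.50 and -1.16. A second Cnr1 probe was well above background on 0 arrays.

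Across the 6 tested genes most calls after birth were in the ventral roots. Through the selected probes, 5 of the 6 were lower in EN at 1W (5.67% of all probes were called lower), at 3W (14.4%) and at 5W (14.5%). The count includes Oprl1 by 1 probe of 3, and it leaves out Oprm1, whose selected probe holds the repeat and whose probe A_52_P699664 was called lower at these ages. It also includes Oprk1, which was not called at these ages with normexp background correction. In AN, Penk alone was lower at 1W (3.62%) and at 3W (12.8%), and no member was called at 5W (27.8% of all probes called in either direction; 0 members at an unadjusted p with the fold, against 28.9%). Without 5W AN replicate 2, Penk, Oprl1, Oprk1 and Cnr1 were called lower at 5W in AN, with differences from -1.34 (Oprl1) to -1.86 (Cnr1). The share of all probes called lower in that fit is not given here, so these calls cannot be set against it. Median differences from P0 over the 6 genes went in EN from -1.97 to -2.85 and -3.13, and in AN from -0.40 to -0.44 and -0.77, with the medians of all tested probes between 0.01 and 0.06. P0 and 1W, and P0 and 5W, shared slides: within these slides the EN differences of Penk, Pdyn, Oprk1, Oprl1 and Cnr1 were all below 0, from -1.05 to -4.54. No slide held P0 and 3W arrays. With the slide as a block Penk and Pdyn (-1.98, adjusted p = 0.0401) were called lower in EN at 3W, and Oprk1 (-1.37, adjusted p = 0.181), Oprl1 (-1.21, adjusted p = 0.183) and Cnr1 were not. With scan batch as the block Oprk1 (-1.49, adjusted p = 0.119) and Oprl1 (-1.26, adjusted p = 0.134) were not called either.

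The order of the groups repeated this. For Oprk1, Oprl1 and Cnr1 the 3 lowest means were EN at 1W, 3W and 5W, and for Pdyn too. Cnr1 ran from 9.02 ± 0.46 (SD, n = 3) in P0 AN to 3.57 ± 0.71 in 5W EN, and the ranges of neighbouring groups overlapped except between 5W AN (7.86 ± 1.37) and 1W EN (5.12 ± 1.20). Pdyn ran from 9.492 ± 1.099 in 5W AN to 5.56 ± 0.25 in 5W EN, with a gap between 1W AN (8.14 ± 0.77) and 1W EN (6.41 ± 0.49). Penk was highest in P0 AN (12.90 ± 0.19) and P0 EN (12.88 ± 0.22) and lowest in 5W EN (8.87 ± 0.63), with a gap between 1W AN (10.74 ± 0.35) and 3W EN (9.54 ± 0.22).

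Marker lists also differed between the roots. The median AN minus EN difference of the 6 members was 1.72 at 1W, 2.11 at 3W and 2.68 at 5W on all arrays. Without 3W AN replicate 3 and 5W AN replicate 2, the differences at 3W and 5W were 1.71 and 2.19 for Penk. They were 3.60 and 3.39 for Pdyn, 1.46 and 1.17 for Oprl1 and 1.71 and 1.49 for Oprk1. For Oprm1 they were 0.45 and 0.46, and for Cnr1 2.83 and 3.59. Sensory neuron markers were higher in AN for 8 of 11 genes at 1W (median difference 4.93), 3 at 3W (3.25) and 1 at 5W (1.49). Without 3W AN replicate 3 and 5W AN replicate 2 these became 0 at 3W (1.48) and 1 at 5W (1.19). In EN 8 of 11 were lower than at P0 at each age. The level summed over the list, as log2, ran from 16.27 to 16.41 in AN and 14.09 to 15.33 in EN at 1W, from 15.35 to 17.70 and 15.09 to 15.61 at 3W, and from 15.38 to 15.97 and 14.37 to 15.21 at 5W. The spinal interneuron list (6 of its 7 genes tested) was higher in AN for 1 gene at 1W and 3W and for 4 at 5W (median difference 2.95; 3 genes and 2.11 without those arrays), with summed levels of 10.39 to 12.74 in AN and 9.03 to 9.37 in EN at 5W. Of its defining genes, Slc32a1 (vesicular GABA transporter) read 10.12, 12.20 and 9.70 in AN and 7.24, 8.05 and 7.90 in EN at 5W, and Slc6a5 reached the background limit on 0 EN arrays of 5W. Within 5W AN, Penk, Pdyn, Oprl1, Oprk1, Cnr1, Gad2, Slc32a1 and Slc6a5 each had their highest value on replicate 2. Within 3W AN, replicate 3 was the highest for Oprl1, Oprk1 and Cnr1 and the lowest for Penk and Pdyn. Of 6 satellite and immature Schwann cell markers, 3, 5 and 5 were higher in AN at 1W, 3W and 5W, and of 9 pan-neuronal markers 5, 1 and 1. Of 4 tested motor neuron markers, Isl2, a transcription factor also known from sensory neurons, was higher in AN at 1W (5.06, adjusted p = 0.00982), and none was called at 3W or 5W. Their summed level ran from 11.97 to 12.67 in AN and 8.34 to 9.73 in EN at 1W, from 9.88 to 13.16 and 9.32 to 9.65 at 3W, and from 9.80 to 10.08 and 8.58 to 9.73 at 5W, without overlap. Chat and Slc18a3, genes of acetylcholine synthesis and storage, were not called between roots at any age, and Mnx1, the fifth gene, exceeded background on 0 arrays. Of 6 astrocyte markers 3, 0 and 3 were higher in AN at 1W, 3W and 5W. Their mean level was 9.81 to 10.18 in AN against 8.27 to 9.59 in EN at 1W, 10.13 to 10.32 against 9.42 to 9.91 at 3W and 10.28 to 11.03 against 9.12 to 9.61 at 5W, while the summed level overlapped at 1W and 5W and was higher in EN at 3W (14.15 to 14.25, against 13.67 to 14.03 in AN). Of 6 oligodendrocyte markers 2, 0 and 2 were higher in AN. The part of these cell types in the differences of the members, between roots or from P0, was not tested.

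The rest of the opioid peptide family and its machinery were read from lists of related genes. Of the 4 precursors, Pnoc, which gives the Oprl1 ligand nociceptin, was higher in AN at 3W (mean 6.80 against 3.49, with no EN array above background, adjusted p = 0.00306) and at 5W (7.75 against 5.54, adjusted p = 0.0344; 0.178 without 3W AN replicate 3 and 5W AN replicate 2). Pomc, the precursor of beta-endorphin, did not pass between roots and rose after birth in both, by 1.23 in EN and 1.21 in AN at 5W. Genes of peptide processing and dense-core vesicles were also higher in AN: at 1W 9 of 11 were higher in AN, then 5 and then 4, and the median differences were 3.08, 2.48 and 1.62 (4 genes and 1.22 at 3W and 5 genes and 1.23 at 5W without those arrays). Among them Scg2, a granin of secretory vesicles, was higher by 4.16, 4.20 and 3.85 (adjusted p = 0.00499, 0.0024 and 0.00385). The prohormone convertase gene Pcsk1 had AN means of 7.55, 6.82 and 5.91 at 1W, 3W and 5W (well above background on 8 of these 9 arrays) and passed background on 0 EN arrays of these ages. Pam, which amidates peptides, was not called between roots and rose from P0 to 5W by 2.36 in EN and 2.05 in AN.

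Genes acting on the released peptides and behind the receptors were read in the same way. None of 5 enkephalin-degrading peptidases, among them Mme (neprilysin), was called between AN and EN at any age, with medians of 0.03, -0.10, -0.10 and -0.09 (limma, 1 or 2 at an unadjusted p alone at each age and 0 with the fold). Of 9 tested genes for inhibitory G proteins and channel targets, 2 were higher in AN at 1W, Gnao1 (2.83, adjusted p = 0.0106) and the calcium channel gene Cacna1b (1.85, adjusted p = 0.0296). The potassium channel gene Kcnj9 was higher at 5W (2.28, adjusted p = 0.0156; 1.56 and 0.0848 without those arrays), and the list's medians from 1W to 5W were 0.27, 0.23 and 0.23. Of 10 genes of receptor desensitization, Rgs4 was higher in AN at 1W (4.02, adjusted p = 0.00405) and Rgs9 at 3W (1.97, adjusted p = 0.0103) and 5W (2.38, adjusted p = 0.00205). Both genes speed the shut-off of G proteins. The arrestin (Arrb1, Arrb2) and receptor kinase genes (Grk2, Grk3, Grk5, Grk6) were not called between roots at any age.

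Around Cnr1, the enzymes that make and break down endocannabinoids were compared as well. None of 5 synthesis and 5 breakdown genes was called between AN and EN at any age (limma, up to 2 of each at an unadjusted p alone and 0 with the fold). Of the breakdown genes, 3 of 5 rose in EN (15.4% of all probes were called higher) and 4 of 5 in AN (15.2%) from P0 to 5W, with medians of 1.27 and 1.70. Faah, which hydrolyses anandamide, rose by 1.96 in EN and 1.71 in AN (adjusted p = 1.88e-06 and 9.6e-06), and Abhd6 by 2.19 and 2.29. Of the 5 synthesis genes only Napepld rose over this time, by 1.31 in EN and 1.89 in AN. Cnr2, the cannabinoid receptor of immune cells, was not called between roots and fell at 3W in both (-1.35 in EN, -1.39 in AN), and Gpr55 was not tested since it missed the filter.

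**Figure D5:**
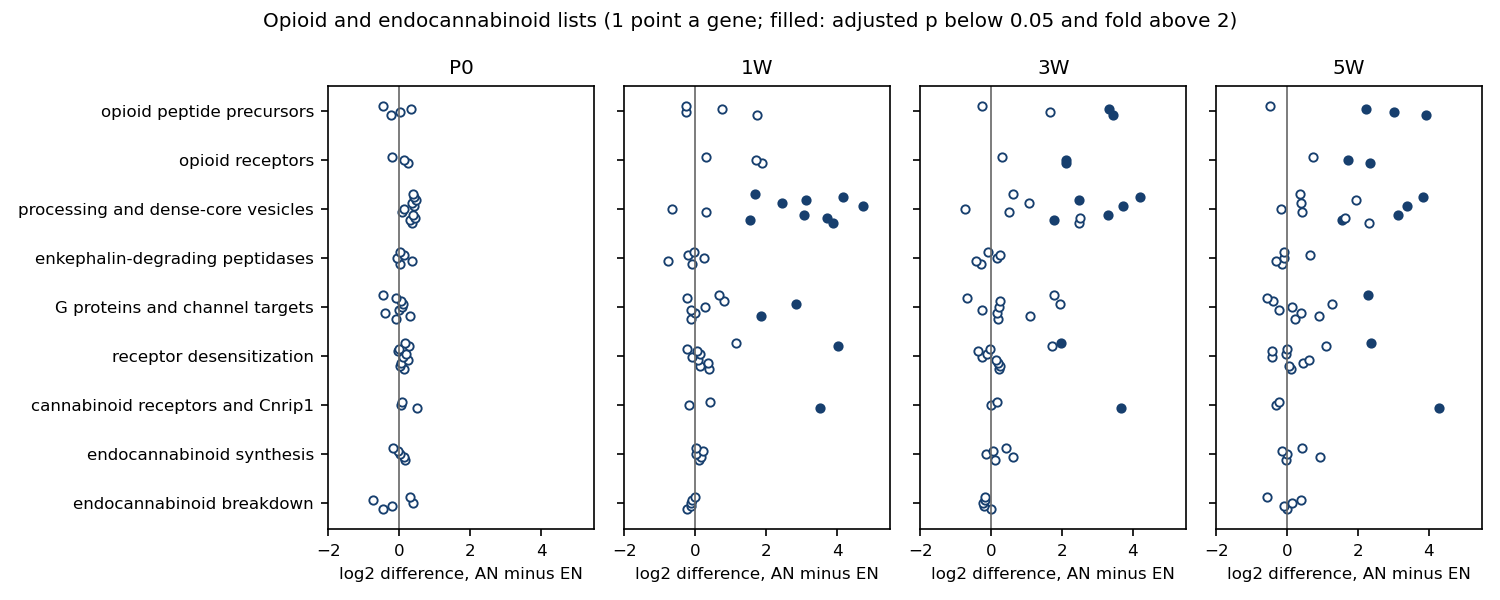
AN minus EN log2 difference of each tested gene in 9 lists around the opioid and cannabinoid receptors, by age; each point is 1 gene, filled where the adjusted p was below 0.05 and the fold above 2. At P0 no gene is filled; from 1W the filled points lie to the right, mostly among precursors, receptors and dense-core vesicle genes.

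The genes whose levels ran most like each member were found by Pearson's r over the 24 arrays, 1 probe per gene, as a description; the arrays share ages, slides and the arrays that stood apart. Cnr1 ran most like Fstl5 (r = 0.990), Tmem130 (0.984) and Dner (0.982). Oprl1 ran most like Dlgap3 (0.977), Dner (0.977) and Syt5 (0.977), and Oprk1 like Nxph1 (0.969), Tmem130 (0.968) and Rgs17 (0.966). Some of these names recur: Dner beside Cnr1 and Oprl1, and Tmem130 beside Cnr1 and Oprk1. Pdyn ran most like Camkv (0.953), Rgs9 (0.953) and Mpped1 (0.945), and Penk like Slc6a9 (0.959), Rmst (0.945) and Pnck (0.934). Among the members, r was 0.956 between Cnr1 and either Oprk1 or Oprl1, 0.934 between Oprk1 and Oprl1, and 0.801 between Penk and Pdyn. For Oprm1 the 3 most alike were probes named for Ly96 (0.984), Tacr2 (0.980) and Krt222 (0.979), and each of these probes carries the same CA run. Over all 74 other probes with the run, r with the Oprm1 probe ran from -0.69 to 0.98 with a median of -0.39.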

How the data were processed

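RNA of each root was labelled with Cy3 and hybridised to 1-colour Agilent SurePrint G3 mouse arrays; the deposited scanner files hold spot intensity and background flags from Agilent Feature Extraction 10.7.1.1, and the authors quantile-normalized them into a deposited table of log2 values. That table was used here (56605 gene probes of its 56743 rows). Its columns had a median of 6.31 and correlated with their own scanner file (r of at least 0.994). Control spots were left out. Per array, 55.1% to 71.7% of gene spots were well above background, the median signal was 45.4 to 190.6, and none was saturated; 3 arrays per group limit the precision.

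Probes whose spots passed background on every array of some group were fitted in limma 3.58.1 (R 4.3.3) with 8 group means (16 residual degrees of freedom) and Benjamini-Hochberg adjustment over 36409 probes. The 13 comparisons were AN against EN at each age, each later age against P0 in each root, and the change of the AN minus EN difference since P0. A gene was read through its brightest probe, and every member was named. The script was tested on simulated data. Arrays of AN and EN with 1 number and age shared a slide and deviated together (r from 0.107 to 0.646 in all 12 pairs). At 3W, where all arrays shared a slide, r was 0.107 to 0.214 for the same number and -0.278 to 0.116 for other numbers. The pairing is thus weakest at that age. Labels do not tie arrays to single animals, so p-values measure the spread between these samples, which may be technical. The 24 arrays lay on 4 slides. Alternatives were other scalings, filters, probes, weights, blocks and arrays left out, of which the replacement of the Oprm1 probe and the joint removal of 2 arrays were chosen after seeing the data. Members and lists were chosen with earlier results of these data known. 1 gene of the Schwann cell list is not reported here and was left out of that list.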

Additional observations from a re-analysis of the deposited data

Results flagged for a closer look

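The AN minus EN difference of Pdyn was larger at 3W than at P0 by 3.66 on the log2 scale and larger at 5W than at P0 by 4.16, each by limma's test of the change of the difference itself (adjusted p = 0.0465 and 0.0156). In the pairs on single slides the P0 differences lay between -1.53 and 0.45, those of 3W between 2.65 and 3.83 and those of 5W between 2.76 and 4.81. The P0 values of Pdyn had a wide spread in both roots (SD of 1.09 in AN and 0.99 in EN). The sensory neuron and spinal interneuron markers of P0 EN overlapped those of P0 AN. The part of this spread and of these markers in the change of the difference was not tested.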

How the results depend on the processing

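The counts of members called (of 6 tested) moved as follows, and the cause was not tested unless named. The share of all probes called is not given for most of these settings, so the counts describe the members alone. A call at an unadjusted p here also needed the fold above 2. Between AN and EN at 1W, where 1 was called, the count was 2 with the fit kept to the groups compared, 4 with array quality weights, the slide block, the replicate block or an unadjusted p, and 3 with the scan batch block. At 3W, where 4 were called, it was 2 with the groups compared alone (Pdyn and Penk), 3 with normexp or no filter on dim probes (Oprk1 lost) and with averaged probes (Oprl1 lost), and 5 with the 75th percentile, weights, the slide, scan batch or replicate block, an unadjusted p and the joint removal (Penk gained). At 5W, where 5 were called, it was 3 with normexp background correction, 0 with the groups compared alone, and 3 without 3W AN replicate 3 and 5W AN replicate 2 together. Keeping the probes above background on all arrays left 3 members (Oprm1, Oprl1 and Penk) and 0, 1 and 2 calls between roots at 1W, 3W and 5W, 2 calls in EN at each age, and 0 for the change of the difference at 3W. In EN against P0, where 5 were called at each age, averaging a gene's probes left 3 at 1W, and at 3W the slide block left 2 and the scan batch block 3. Normexp took away the Oprk1 call at each of these ages. In AN against P0 at 3W, where 1 was called, both batch blocks left 0 and the joint removal gave 2; at 5W, where 0 were called, weights and the slide block gave 1 and the joint removal 4. For the change of the difference since P0, weights gave 2 and an unadjusted p 3 at 1W (0 called); at 3W (1 called) normexp and no filter on dim probes gave 0, the replicate block 2 and an unadjusted p 5, and with the groups compared alone Pdyn was lost (adjusted p = 0.0828) and Penk called (0.0164); at 5W (1 called) both scanner scalings and normexp gave 2, the groups compared alone 0, weights, slide, scan batch and replicate block 3, and an unadjusted p 5. Leaving out each array in turn, the counts between roots lay at 0 to 2 (1W), 2 to 4 (3W) and 3 to 5 (5W), those against P0 at 2 to 5 (EN, 1W) and 0 to 4 (AN, 5W), and those for the change of the difference at 0 to 1 (3W) and 0 to 3 (5W). The replicate block, which pairs AN and EN arrays of a number, changed no other call than those given in the text. Across ages, arrays with the same number in 1 root had r from -0.35 to 0.38, so numbers were not paired there. Read through A_55_P2087458 in place of the repeat-bearing probe, Oprm1 in AN at 3W against P0 reversed to -1.06. Signal over background limits Oprk1, Oprd1 and the other Oprm1 probes, whose levels mostly lay below the background limit in EN.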
